A study of Mus musculus with 4 samples.

Results

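Immunoglobulin transcripts were read on 4 single-colour bead arrays through every probe whose single gene symbol begins with Igh, Igk or Igl, without Ighmbp2 and Igll1, or is Jchain. The rule took 4 of 45281 probes, for 3 of 19057 genes. One carries the symbol of the IgG1 heavy chain constant gene Ighg1, one that of the joining chain gene Jchain, and 2 belong to Iglon5. Iglon5 shares only its first letters with the lambda locus and encodes a cell adhesion protein, so Ighg1 and Jchain are the 2 probes that report on antibody genes. By symbol the rule found 1 heavy chain probe, which is annotated to a constant gene, 0 kappa probes, 0 lambda probes and 0 variable segment probes. A comparison of loci, or of variable with constant segments, was therefore not made, and 10378 probes with no gene symbol were not used here.

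The RNA came from splenic cells of BXD2 mice, a recombinant inbred strain that develops lupus-like autoimmunity. Flow cytometry had selected them as marginal zone macrophages, by low CD11b, absent F4/80, absent I-Ab and surface SIGN-R1. All mice were 2.5 months old and were killed 10 hours after an injection, and each array pools the cells of 2 mice. There were 2 arrays of BXD2 mice given PBS (the controls), 1 array of BXD2-Ifnar-/- mice given PBS, in which a type I interferon receptor gene is deleted, and 1 array of BXD2 mice given 25 µg of sLTβR-Fc intravenously. sLTβR-Fc is a soluble decoy for the ligands of the lymphotoxin β receptor, joined to an antibody Fc part. Its controls were given PBS, so the decoy and other effects of an injected Fc protein cannot be told apart.

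An antibody is built of heavy and light chains. B cells join variable, diversity and joining segments to make the variable part of the heavy chain, and they first use the constant gene for IgM. Class switching then moves the same variable part next to another constant gene, such as Ighg1. Plasma cells transcribe these genes at very high rates and also make the joining chain, a small protein that links IgM and IgA into polymers for secretion. Macrophages do not rearrange immunoglobulin genes. They take up antibody-coated material through Fc receptors, and in the marginal zone they lie beside B cells.

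RefSeq places Ighg1 at chr12:113326541-113330523 in GRCm38.p6, as a constant region gene of 3983 bases in the heavy chain locus. Its RefSeq synonyms include IgG1 and Igh-4, but also VH7183, the name of a variable gene family. The probe has no accession, and its sequence was not used here. Whether it reads the constant exons or a rearranged variable sequence is therefore not known, and IgG constant genes are close relatives that 1 probe may not tell apart. Jchain lies outside the antibody loci, at chr5:88519809-88527897, and its probe is tied to a RefSeq transcript.

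The Jchain promoter is printed because Jchain is the only antibody gene measured here whose start site is in the RefSeq promoter table. The 250 bases before the start, minus strand, span chr5:88527898-88528147 in GRCm38.p6, and capitals mark each E-box, the letters CANNTG that basic helix-loop-helix factors can bind.
Jchain: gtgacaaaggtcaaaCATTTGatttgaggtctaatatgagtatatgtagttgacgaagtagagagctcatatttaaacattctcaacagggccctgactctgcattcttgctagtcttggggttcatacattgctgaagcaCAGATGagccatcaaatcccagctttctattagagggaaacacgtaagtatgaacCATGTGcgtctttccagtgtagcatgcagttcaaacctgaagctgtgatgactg
The window holds 3 E-boxes, whose first bases lie at -235, -109 and -54 from the start. Of 32851 promoter windows of this length, 66.2% hold at least 1 E-box and 12.2% hold 3 or more. The octamer ATGCAAAT, which Oct factors bind in promoters of variable segments, was searched on both strands and is not in this window, and 1.60% of the windows hold it. These matches describe the letters only.

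Ighg1 was bright on every array and stood highest on the sLTβR-Fc array. The controls had deposited intensities of 2562 and 2137, against 1167 for Ifnar-/- and 7361 for sLTβR-Fc. The control values were 22.7 and 18.5 times the background limit of their arrays, the intensity that 95% of background noise does not reach, and the sLTβR-Fc value was 67.9 times its limit. After quantile normalisation, which gives the arrays the same distribution, the values were 2062 and 1954 (controls), 1262 (Ifnar-/-) and 8234 (sLTβR-Fc). The controls lay close together, the Ifnar-/- array below both and the sLTβR-Fc array above both, before and after normalisation. Among all 45281 probes ordered by deposited intensity, Ighg1 ranked 1279 and 1358 from the brightest in the control pools, 2206 with Ifnar-/- and 214 after sLTβR-Fc.

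Jchain was above background everywhere, with values closer to one another. The controls had deposited intensities of 841 and 553, Ifnar-/- had 520 and sLTβR-Fc 618, between 4.79 and 7.44 times the limits. Normalised, the controls read 688 and 502, Ifnar-/- 548 and sLTβR-Fc 862. The controls alone stood 1.37-fold apart after normalisation, against 1.05-fold for Ighg1. The Ifnar-/- value lay between the controls after normalisation and below both as deposited, and the sLTβR-Fc value lay above both after normalisation and between them as deposited.

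The Iglon5 probes were at or near background. One probe read between 0.999 and 1.07 times the limit and passed it on 3 of 4 arrays, and the other passed it on 0 arrays and was not tested. Igll1, which encodes the λ5 part of the surrogate light chain of B cell precursors and is left out by the rule, read between 1.08 and 1.19 times the limit.

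**Figure D1:**
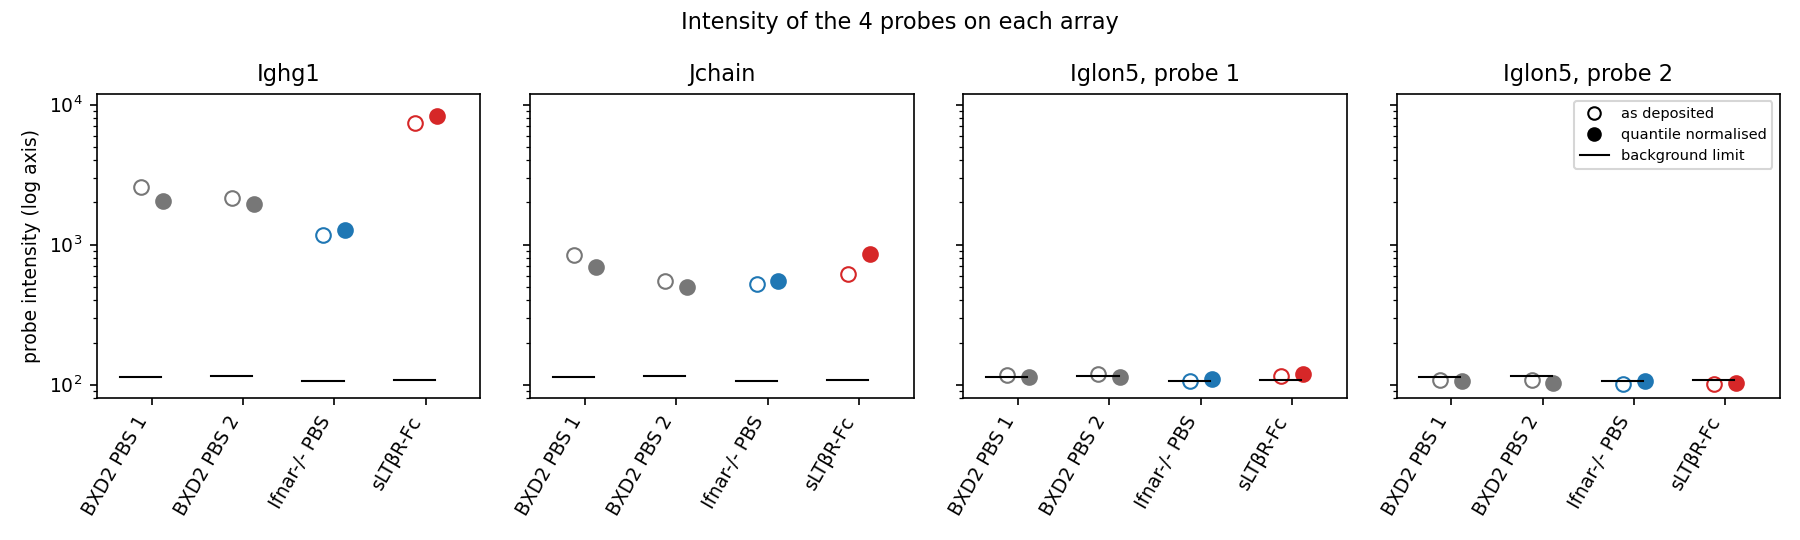
Intensity of the 4 probes on each array, on a log axis: open circles as deposited, filled circles after quantile normalisation, short lines the background limit of each array. Ighg1 is 2062 and 1954 in controls, 8234 after sLTβR-Fc and 1262 with Ifnar-/-, Jchain stays between 502 and 862, and Iglon5 lies at background.

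The sLTβR-Fc array was compared first with the PBS controls. Ighg1 rose 4.10-fold over the control mean (log2 2.04 ± 0.20, SE, 1 array against 2), with an adjusted p of 1.16e-10 in limma, Benjamini-Hochberg adjusted over 23981 probes. It lay above both control arrays, as 39.9% of probes did, by a log2 of 2.00 from the nearer one. In this comparison 6.47% of probes were called higher by limma, and 0.755% were 2-fold higher than both controls. By size of the difference Ighg1 was number 20 from the top of the 23981. In bulk RNA, a change in the number of cells of a type and a change in RNA per cell cannot be told apart.

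This fit takes its spread from the control pair alone, mostly pooled over probes of like brightness (46.6 prior degrees of freedom). It assumes the same spread for each array without a replicate. The SE of 0.20 is therefore not the spread of Ighg1 itself, whose control values had a log2 standard deviation of 0.055. The call of Ighg1 was lost with a floor at the background limits (adjusted p = 0.164) and with the background subtracted (adjusted p = 0.235), and limma then called 0 of 23981 probes (5299 and 4584 at an unadjusted p under 0.05), while the other settings with a test gave adjusted p values from 1.35e-10 to 0.00987. Its unadjusted p values there were 0.00202 and 3.61e-04, and the difference itself was 2.04 and 2.09.

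Jchain did not pass in the same comparison. Its value was 1.47 times the control mean (log2 0.55 ± 0.22, adjusted p = 0.0967 in limma), and with no scaling of the deposited intensities the difference was -0.14. The median of all genes was then -0.21. Ighg1 held its direction there, at log2 1.65 or 3.15-fold.

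On the Ifnar-/- array Ighg1 fell. It was 0.629 times the control mean (log2 -0.67 ± 0.20, adjusted p = 0.0204 in limma), short of 2-fold, and lay below both controls, as 36.2% of probes did. Limma called 5.73% of probes lower in this comparison, and Ighg1 was number 689 from the bottom. The call was lost with the floor (adjusted p = 0.209) and with the background subtracted (adjusted p = 0.277), and the other settings gave 0.0032 to 0.0367. As deposited the difference was -1.0, with a median of -0.14 over all genes. Jchain differed by -0.10 ± 0.22 (adjusted p = 0.856), and without the first control array its sign turned, to 0.13.

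Set against each other, the arrays without a replicate differed more in Ighg1 than either did from the controls. The sLTβR-Fc array read 6.52 times the Ifnar-/- array (log2 of Ifnar-/- minus sLTβR-Fc -2.71 ± 0.23, adjusted p = 1.30e-12 in limma, 1 array against 1). Limma called 4.04% of probes lower in this direction and 1.17% were 2-fold lower, and Ighg1 was number 15 from the bottom. With the floor and with the background subtracted the adjusted p was 0.170 and 0.346, against 1.57e-12 to 0.0100 in the other settings. Jchain stood at log2 -0.65 ± 0.26 (adjusted p = 0.118).

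**Figure D2:**
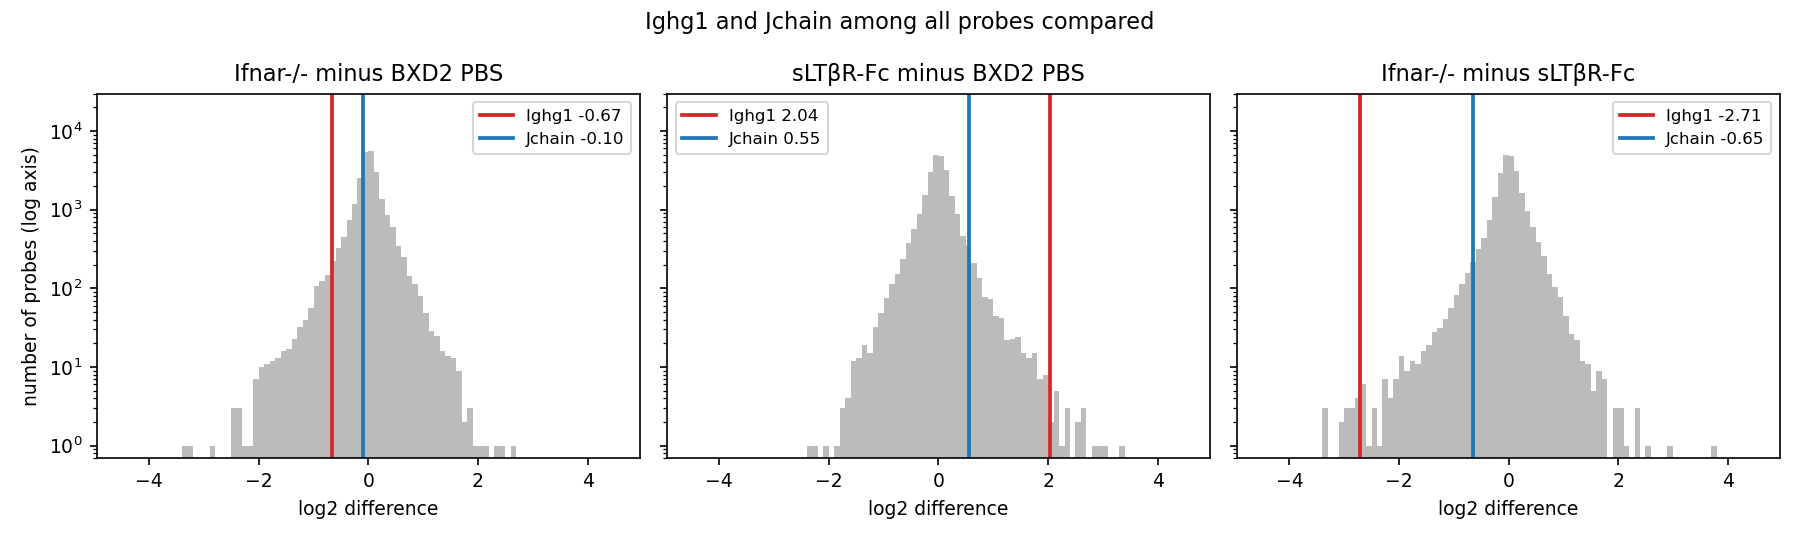
Log2 differences of the 23981 probes compared (grey histogram, number of probes on a log axis) with Ighg1 in red and Jchain in blue, for Ifnar-/- minus controls, sLTβR-Fc minus controls and Ifnar-/- minus sLTβR-Fc. Ighg1 lies at -0.67, 2.04 and -2.71, far out in the last 2 panels, and Jchain at -0.10, 0.55 and -0.65.

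**Figure D3:**
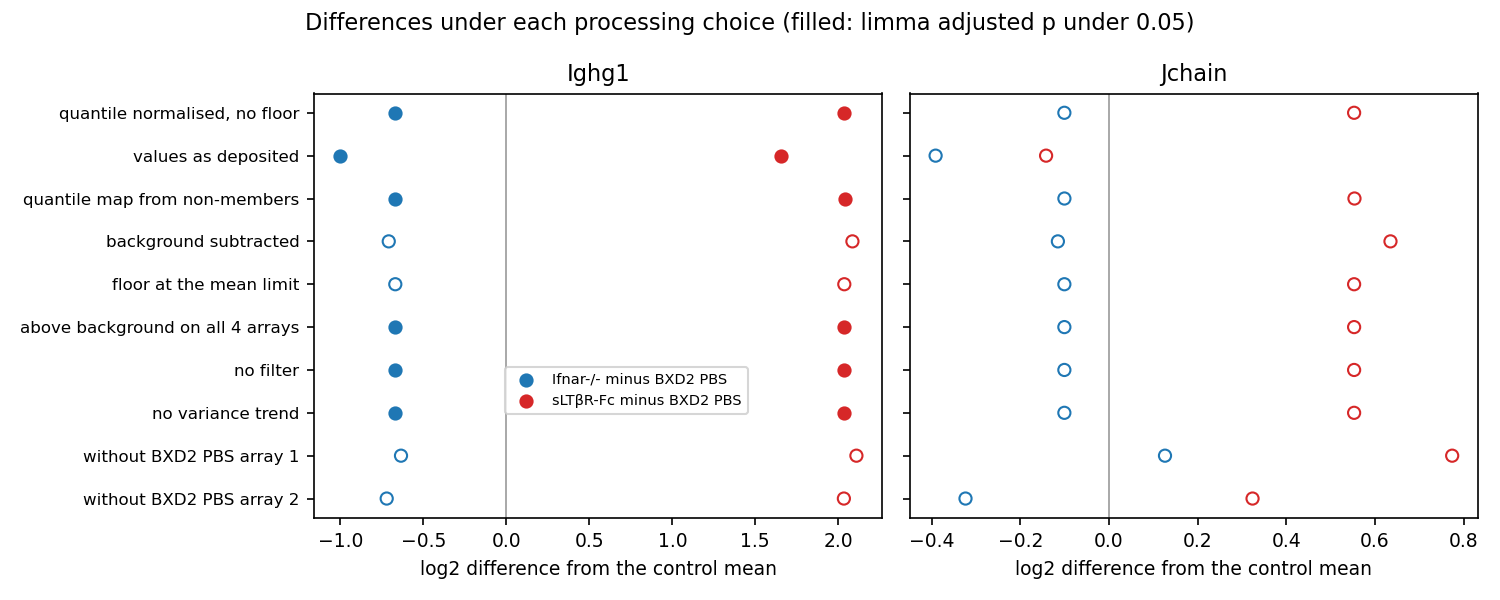
Log2 difference of Ighg1 and Jchain from the control mean under each processing choice, filled where limma's adjusted p is under 0.05; the panels have different horizontal scales, and the settings without a control array have no test. Ighg1 is below 0 on the Ifnar-/- array and above 0 on the sLTβR-Fc array in every setting drawn, while Jchain crosses 0 in the values as deposited (sLTβR-Fc) and without the first control array (Ifnar-/-).

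Genes that work with immunoglobulin were counted next, each by its brightest probe. Of all genes, 23.6% had an unadjusted limma p under 0.05 with Ifnar-/-, higher and lower together. The share was 26.8% after sLTβR-Fc and 22.1% for Ifnar-/- minus sLTβR-Fc. Unadjusted counts of the lists stand beside these shares. Surface antibody signals through Cd79b and its partner, and factors such as Pou2af1, the coactivator of Oct factors, and Spib drive transcription in B cells. On the Ifnar-/- array, where Ighg1 was lower, 11 of 19 measured antigen receptor partners and transcription factors rose and 0 fell by limma (14 and 0 at an unadjusted p under 0.05), against 5.92% of all genes called higher and 6.14% lower. Their median log2 difference was 0.63, against 0.015 for all genes, and 18 of 19 lay above both controls, as 42.8% of all genes did. Medians of further probes were smaller for Spib (-0.015 against 1.04), Cr2 (0.19 against 0.75), Ebf1 (0.12 against 0.74) and Fcgr2b (0.35 against 1.17). Those of Blk (0.64 against 0.73) and Cd79b (0.88 against 0.54) stayed high. Cd79b was 13760 against 9386 and 9488 in controls (log2 0.54 ± 0.12, adjusted p = 0.00156; 0.25 as deposited, not called). As deposited the list's median was 0.30 with 3 called higher and 0 lower, where 235 of 14721 genes were called higher and 2133 lower.

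On the sLTβR-Fc array 2 of the same 19 genes were called higher and 3 lower at a median of -0.070, where 7.89% and 6.04% of all genes were called higher and lower. As deposited 0 were called higher and 10 lower at a median of -0.54, where 175 of 14721 genes were called higher and 4883 lower. Cd79b read 6305 (log2 -0.58 ± 0.12, adjusted p = 6.76e-04; -0.086 on its further probe). Pou2af1 was at 510 and 483 in controls, 774 with Ifnar-/- (adjusted p = 0.0326) and 331 after sLTβR-Fc, where it just missed the threshold of 0.05. Directly compared, 10 of 19 were called higher on the Ifnar-/- array than on the sLTβR-Fc array and 0 lower (15 and 0 unadjusted). The shares of all genes were 3.93% and 5.17%, and Ighg1 was 6.52-fold lower there. Of the lists counted below, B cell markers had 12 of 15 called higher in this comparison and 0 lower. Antibody secretion genes had 1 of 24 called higher and 8 lower, and plasma cell markers 1 of 14 and 6. Medians were 0.68 for the partners, 0.87 for B cell markers, -0.12 for secretion and -0.21 for plasma cell markers.

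B cell markers share 8 measured genes with these partners. Of 15 measured, 7 rose and 0 fell with Ifnar-/- (10 and 0 unadjusted, median 0.54), and 0 rose and 4 fell after sLTβR-Fc (0 and 7 unadjusted, median -0.26). The shares of all genes called higher and lower were 5.92% and 6.14% with Ifnar-/- and 7.89% and 6.04% after sLTβR-Fc. As deposited 1 marker was called higher and 1 lower with Ifnar-/-, where 235 of 14721 genes were called higher and 2133 lower. After sLTβR-Fc it was 0 higher and 13 lower, where 175 genes were called higher and 4883 lower. The summed normalised intensity of the markers was 31590 and 30560 in controls, 44830 with Ifnar-/- and 22250 after sLTβR-Fc. Bank1, a B cell signalling scaffold, was the 1 of 15 that stood 2-fold from both controls, as 0.469% of all genes did downwards, at 2452 and 1748 against 837 on the sLTβR-Fc array, and 1531 with Ifnar-/- (sLTβR-Fc log2 -1.31 ± 0.23, adjusted p = 3.55e-05). Of the defining markers measured, Ms4a1, which encodes CD20, read 213 and 229 in controls, 270 with Ifnar-/- and 185 after sLTβR-Fc. It had no call against the controls and differed by log2 0.55 for Ifnar-/- minus sLTβR-Fc, where limma called it higher. Pax5 lay between 0.952 and 1.00 times the limit.

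Genes of antibody secretion serve the folding and export machinery that plasma cells enlarge. On the sLTβR-Fc array 9 of 24 rose and 0 fell by limma, against 7.89% and 6.04% of all genes. At an unadjusted p under 0.05 it was 12 and 2, where 26.8% of all genes passed in either direction. The list's median was 0.31, 19 of 24 lay above both controls, as 43.8% of all genes did, and 5 lay below both. As deposited 2 were called higher and 3 lower, at a median of -0.022 against -0.21 for all genes, of which 175 were then called higher and 4883 lower. In all, 3 of 24 were 2-fold higher than both controls, as 1.01% of all genes were. Fkbp11, a prolyl isomerase of the secretory pathway, was 1661 against 716 and 505 (log2 1.47 ± 0.23, adjusted p = 4.73e-06). Tent5c, which lengthens poly(A) tails of immunoglobulin mRNA in plasma cells, was 933 against 349 and 359 (log2 1.40 ± 0.20, adjusted p = 7.68e-07). Dnajb9, a chaperone partner, was 2.54-fold the control mean and lost its call as deposited. Xbp1, the transcription factor that expands the secretory pathway, read 2355 and 2985 against 4689 (log2 0.82 ± 0.19, adjusted p = 0.00228; 0.24 and adjusted p = 0.421 as deposited). These 4 genes lost their calls with the floor and with the background subtracted, as every gene did.

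On the Ifnar-/- array the secretion list had a median of 0.034, with 3 of 24 called higher and 1 lower, against 5.92% and 6.14% of all genes. As deposited the median was -0.21, against -0.14 for all genes. Of the list 16 of 24 then lay below both controls, as 10408 of 14721 genes did. Mzb1, a chaperone for the heavy chain of IgM found in marginal zone B cells and plasma cells, was 4419 against 1821 and 2065 (log2 1.19 ± 0.20, adjusted p = 2.33e-05). Creld2, an endoplasmic reticulum stress gene, fell from 3413 and 2424 to 714 (log2 -2.01 ± 0.22, adjusted p = 2.53e-09).

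Plasma cell markers, 11 of which are also on the secretion list, had 5 of 14 called higher and 0 lower (6 and 2 unadjusted) on the sLTβR-Fc array and 2 higher and 2 lower on the Ifnar-/- array, at medians of 0.16 and -0.100. Of all genes 7.89% and 6.04% were called higher and lower after sLTβR-Fc, and 5.92% and 6.14% with Ifnar-/-. As deposited 3 were called higher and 3 lower after sLTβR-Fc (median -0.11), and 1 higher and 5 lower with Ifnar-/- (median -0.27). Of 14721 genes 175 were then called higher and 4883 lower after sLTβR-Fc (median -0.21). With Ifnar-/- it was 235 and 2133 (median -0.14). Summed, the plasma cell markers came to 10800 and 10480 in controls, 11110 with Ifnar-/- and 14840 after sLTβR-Fc. The defining markers were dim. Sdc1, which encodes CD138, lay between 1.07 and 1.31 times the limit. Prdm1, the plasma cell master regulator, lay between 0.962 and 1.11 and Tnfrsf17, the BCMA receptor, between 1.02 and 1.21. Limma called 0 of these 3 in either comparison with the controls. For Ifnar-/- minus sLTβR-Fc they differed by log2 0.038, 0.22 and -0.33, and limma called Tnfrsf17 lower there but not Sdc1 or Prdm1. Irf4, a regulator of class switching and plasma cell fate, was 540 and 571 in controls, 994 with Ifnar-/- and 883 after sLTβR-Fc (log2 0.84 and 0.67, adjusted p = 0.00645 and 0.0340), but the latter was -0.027 as deposited. Slpi, a protease inhibitor on this list that myeloid cells also make, was 2.66-fold the control mean on the sLTβR-Fc array. The part of B cells or plasma cells in the Ighg1 difference was not tested.

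Markers of other cells were counted beside these, where 5.92% of all genes were called higher and 6.14% lower with Ifnar-/-, and 7.89% and 6.04% after sLTβR-Fc. Neutrophil genes had 7 of 10 called lower and 1 higher on the Ifnar-/- array and 4 higher and 0 lower on the sLTβR-Fc array (5 and 0 unadjusted), and their summed intensity was 46610 and 32000 in controls, 17490 with Ifnar-/- and 58040 after sLTβR-Fc. Of the T cell markers 3 of 10 fell with Ifnar-/- and 7 of 10 after sLTβR-Fc, and of the erythroid markers 4 of 6 and 1 of 6. Of the dendritic cell markers 5 of 8 rose with Ifnar-/- and 2 of 8 after sLTβR-Fc, and of the marginal zone macrophage markers 6 of 10 fell with Ifnar-/- and 1 of 10 after sLTβR-Fc. The controls alone differed in the summed macrophage markers, at 4117 and 2119, against 1653 with Ifnar-/-. The median log2 of these markers was -0.52 for the second control minus the first, and -0.38 for Ifnar-/- minus the control mean. Summed erythroid markers were 5791 and 3316 in controls, and Hba-a1 of that list read 2331 and 854. With Ifnar-/- Vcam1, Axl and Cd163 stood at log2 -1.78, -1.48 and -0.77, but on further probes at -0.085, 0.066 and 0.12. C1qa, C1qb and C1qc, which also fell, have no further probe. The part of these other cells in the Ighg1 differences was not tested.

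**Figure D4:**
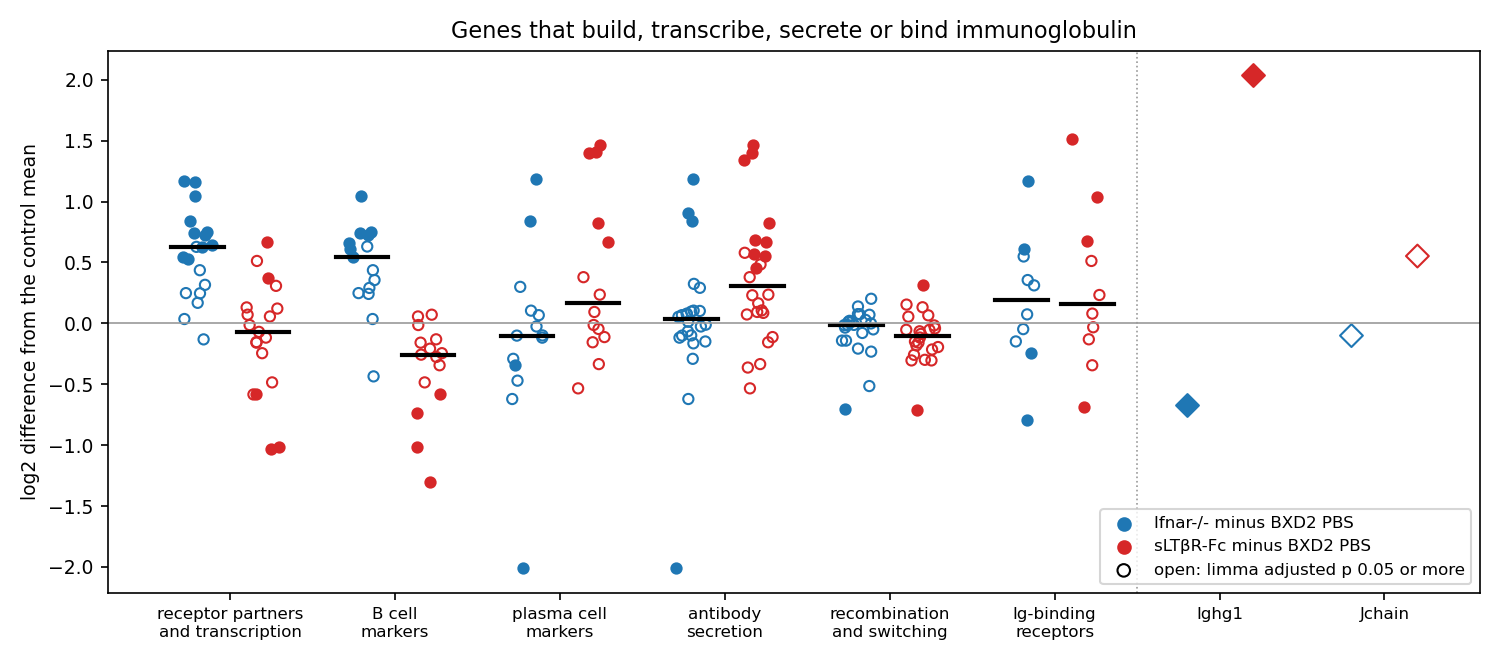
Log2 difference from the control mean for each measured gene of 6 lists and, right of the dotted line, for Ighg1 and Jchain; blue is the Ifnar-/- array, red the sLTβR-Fc array, filled symbols have a limma adjusted p under 0.05 and black bars are list medians. Receptor partners and B cell markers have medians of 0.63 and 0.54 with Ifnar-/- but -0.070 and -0.26 after sLTβR-Fc, and Ighg1 lies at -0.67 and 2.04.

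Of 22 measured genes that rearrange, switch or mutate antibody genes, 0 rose and 1 fell on the Ifnar-/- array (5.92% and 6.14% of all genes), and 1 rose and 1 fell on the sLTβR-Fc array (7.89% and 6.04%). At an unadjusted p under 0.05 it was 0 and 2, and 1 and 3, against 23.6% and 26.8% of all genes in either direction. The list's medians were -0.013 and -0.10, and 16 of 22 lay below both controls after sLTβR-Fc, as 35.7% of all genes did. As deposited 0 were called higher and 3 lower with Ifnar-/-, where 235 of 14721 genes were called higher and 2133 lower. After sLTβR-Fc it was 0 higher and 12 lower, where 175 genes were called higher and 4883 lower. Rag1, which cuts the segments, lay close to background, at 127 and 119 in controls, 123 with Ifnar-/- and 137 after sLTβR-Fc. Vpreb3, which associates with immunoglobulin chains in B cell precursors, read 274 and 253 in controls, 276 with Ifnar-/- and 213 after sLTβR-Fc, with no call.

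Receptors that bind immunoglobulin had 2 of 10 called higher and 2 lower on the Ifnar-/- array and 3 higher and 1 lower on the sLTβR-Fc array. The shares for all genes were 5.92% and 6.14%, and 7.89% and 6.04%. As deposited 1 was called higher and 2 lower with Ifnar-/- (median -0.021), and 1 higher and 3 lower after sLTβR-Fc (median -0.13). Of 14721 genes 235 were then called higher and 2133 lower with Ifnar-/- (median -0.14), and 175 and 4883 after sLTβR-Fc (median -0.21). Fcgr2b, the inhibitory IgG receptor, was 791 on the Ifnar-/- array against 331 and 373 (log2 1.17 ± 0.20, adjusted p = 3.23e-05), with a median of 0.35 on its further probes. Fcer1a, the IgE receptor chain of mast cells and basophils, was 2087 on the sLTβR-Fc array against 535 and 1004 (log2 1.51 ± 0.25, adjusted p = 1.64e-05). Fcgr3, an activating IgG receptor, read 317 and 374 against 705 there (log2 1.03 ± 0.20, adjusted p = 2.00e-04; adjusted p = 0.208 as deposited).

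The genes of the sort gate were read on the same arrays. Cd209b, which encodes SIGN-R1, lay only 1.17 to 1.34 times above the limits, while H2-Ab1, which encodes the excluded I-A β chain, was bright, at 8662 and 8305 in controls, 16290 with Ifnar-/- and 9488 after sLTβR-Fc. Itgam, which encodes CD11b, read 109 to 118, and Adgre1, which encodes the excluded F4/80, read 629 and 306 in controls, 1017 with Ifnar-/- and 631 after sLTβR-Fc. The macrophage receptor gene Marco lay between 1.35 and 2.62 times the limits. Between 52.4% and 53.9% of probes were above background, and upper quartiles ran from 146 on the sLTβR-Fc array to 188 on a control, and the scaling between arrays therefore shifts differences on the sLTβR-Fc array most.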

How the data were processed

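Sorted cells were profiled on Illumina bead arrays, and the submitters' processing notes name GenomeStudio 2011.1. The authors deposited 1 linear intensity per probe and array. No source used here states a background correction or scaling, and background remains in the values. Genes were named through the platform annotation (34885 probes with 1 symbol, 18 with several, 10378 with none). Values were quantile normalised and converted to log2. Probes with 1 symbol above background on at least 1 array (23981) were fitted in limma 3.58.1 (R 4.3.3), with 3 group means, a variance trend and Benjamini-Hochberg adjustment at 0.05; a probe that passed on 1 array only had to differ. The single residual degree of freedom comes from the controls. The labels do not say that the control arrays come from different mice, so p-values measure a spread that may be technical, and the number of arrays limits the precision.

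Members, lists and tests were chosen with earlier results of these data known. In particular, the fit without a floor was made the main one when it was known that a fit with a floor called 0 genes; the fit with the floor is an alternative. In all 9 alternatives were run.

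The fit was tested on simulated data and did not pass at first. Differences of changed probes were shrunk by the normalisation beyond the tolerance first set. The simulated probes were then changed to moderately bright ones, with equal numbers raised and lowered, and after a further failure the tolerance was loosened to a share of the change. In simulations with changed probes, the share of false calls was above the nominal 5%, for a reason that was not found, so limma's calls here may hold more false ones than the threshold states. Moderate changes were recovered in part only.

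Genes of the B cell, plasma cell and immunoglobulin lists are named if they are defining markers or 2-fold from both controls. Markers of other cells were counted without this naming rule, although some of them were 2-fold from both controls. Cd79b, Pou2af1, Xbp1, Fcgr3, Rag1, Vpreb3, Pdia4, Pdia6, Fcgr4 and Marco were chosen after their values were seen. So were Spib, Cr2, Ebf1, Blk, Vcam1, Axl, Cd163, C1qa, C1qb, C1qc and Hba-a1. The E-box was chosen after the promoter sequence was seen.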

Additional observations from a re-analysis of the deposited data

How the results depend on the processing

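No paired analysis was possible because 2 of the 3 groups have 1 array each. Settings for lists and list genes were added after seeing the data. Without a floor limma called 1 of the 2 antibody probes (Ighg1) in each comparison; with the floor and with the background subtracted it called 0, as it did over all probes. Ighg1 then stood at -0.67 and -0.71 (Ifnar-/- minus controls), 2.04 and 2.09 (sLTβR-Fc minus controls) and -2.71 and -2.79 (Ifnar-/- minus sLTβR-Fc). At an unadjusted p under 0.05 these settings had 4567 and 3904, 5299 and 4584, and 5042 and 3381 probes, and prior degrees of freedom of 0.862 and 2.27 against 46.6. Leaving out either control gave -0.72 to -0.63 and 2.03 to 2.11 for Ighg1, and -0.32 to 0.13 and 0.32 to 0.77 for Jchain. As deposited, on the sLTβR-Fc array, Jchain turned to -0.14, Irf4 to -0.027, Pdia4 to -0.026, Pdia6 to -0.039 and Fcgr4 to -0.032. Calls over all probes were then 332 higher and 3446 lower for Ifnar-/- minus controls (1270 and 1374 after normalisation), 228 and 7522 for sLTβR-Fc minus controls (1552 and 1576), and 1080 and 279 for Ifnar-/- minus sLTβR-Fc (955 and 970). Without the variance trend the totals were 1396, 1328 and 772, against 2644, 3128 and 1925. Ighg1 kept its direction under all 9 alternatives in each comparison. Because background stays in the values, changes of dim genes are understated.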
